A study of Mus musculus with 6 samples.

Results

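The CCAAT/enhancer-binding proteins (C/EBPs) are basic leucine zipper transcription factors, and 5 genes of this group, Cebpa, Cebpb, Cebpd, Cebpg and Ddit3, were followed in neoplastic cells of mouse lung tumors. The 5 genes were taken by their symbols out of the 31055 features of a single-cell RNA-sequencing matrix. Tumors were initiated with lentiviral Cre in mice with the alleles Lkb1XTR/XTR and Rosa26LSL-tdTomato, so the tumors of all 6 mice carried the red label tdTomato and an Lkb1 gene (symbol Stk11) with the XTR cassette, a gene trap encoding GFP that truncates the Lkb1 transcript after Cre and is removed by tamoxifen-activated FLPo-ERT2. The 3 Restored mice carried FLPo-ERT2 and received tamoxifen, and the 3 NonRestored mice were 1 FLPo-ERT2 mouse given vehicle and 2 mice without FLPo-ERT2, of which 1 received tamoxifen and 1 vehicle. Tumors had grown for 20 weeks and treatment lasted 2 weeks. Cells were dissociated from tumors and sorted against blood, endothelial and dead cells, with a target of 8000 cells per sample.

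No file used here gives the mouse of a cell. The matrix of 16017 cells was therefore treated as 1 sample, Restored and NonRestored mice were not compared, and no p-value was computed. All intervals are exact 95% intervals, Poisson for levels, conditional binomial for ratios and Clopper-Pearson for shares, and they cover counting error only. The questions were which C/EBP members the cells expressed, whether members were detected in the same cells, and whether their levels moved with genes of the alveolar type II (ATII) cell, the surfactant-producing cell of the alveolus.

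C/EBPs bind DNA as homodimers or heterodimers, so which members a cell holds decides which dimers it can form. In the lung, C/EBPα drives the maturation of ATII cells and restrains growth in several lineages, C/EBPβ and C/EBPδ respond to inflammatory and hormonal signals, C/EBPγ lacks an activation domain and works through its partner, often ATF4, and DDIT3 (also called CHOP) is induced by stress of the endoplasmic reticulum and diverts the other members from their usual sites.

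All 5 identifiers matched the GENCODE M21 annotation of GRCm38, the build of the files (mm10). Cebpa (ENSMUSG00000034957; chromosome 7, 35119293 to 35121928, plus strand) and Cebpg (ENSMUSG00000056216; chromosome 7, 35046422 to 35056573, minus strand) were neighbors, 62719 bases apart with 0 protein-coding genes between them. Cebpb (ENSMUSG00000056501; chromosome 2, 167688915 to 167690418, plus strand) consisted of 1 exon, and Cebpd (ENSMUSG00000071637) lay on chromosome 16, 15887286 to 15891031. Ddit3 (ENSMUSG00000025408; chromosome 10, 127290774 to 127296288, plus strand) overlapped a second record on the same strand, which the matrix lists as AC144852.1 with 0 UMIs against 8620 for Ddit3. Reads that fit both records could be lost from Ddit3, although the second record ends 2535 bases before the 3′ end that this assay reads. Cebpg overlapped Gm44836 and Gm45094 on its own strand, so its count is uncertain in the same way. Cebpa, Cebpb and Cebpd overlapped genes only on the opposite strand, which a strand-specific assay keeps apart.

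RefSeq promoter entries (GRCm38.p6) were found for 4 of the 5 members and are shown for the 100 bases before the start so that the members can be compared at their starts, Cebpg and Cebpa being neighbors. Capitals mark every match of the 4 motifs searched on both strands in the 250 upstream bases, namely CCAAT (the CCAAT box), TTNNGNAA (the C/EBP consensus), TGATGNAA (the composite C/EBP and ATF element) and TATAAA (the TATA box), none of which overlapped another here.
Cebpa, chr7:35119193-35119292, plus strand: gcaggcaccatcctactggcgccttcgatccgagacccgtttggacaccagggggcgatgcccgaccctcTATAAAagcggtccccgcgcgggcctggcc
Cebpb, chr2:167688815-167688914, plus strand: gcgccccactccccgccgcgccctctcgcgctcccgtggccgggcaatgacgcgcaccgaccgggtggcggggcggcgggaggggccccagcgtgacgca
Cebpg, chr7:35056567-35056666, minus strand: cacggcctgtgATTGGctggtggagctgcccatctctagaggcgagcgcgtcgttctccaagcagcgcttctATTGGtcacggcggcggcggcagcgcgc
Ddit3, chr10:127290693-127290792, plus strand: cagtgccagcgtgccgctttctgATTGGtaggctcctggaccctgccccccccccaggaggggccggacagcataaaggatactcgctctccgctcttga
Cebpa held a TATA box 30 bases before its start, a motif with a match in 12.4% of 32851 promoters. Cebpg and Ddit3 held the CCAAT box on the opposite strand (printed as ATTGG), Cebpg at 89 and 28 bases and Ddit3 at 77 bases before the start, and 33.8% of all promoters held it. The 250 bases before Cebpb held 0 matches of the 4 motifs. TTNNGNAA occurred in 36.8% and TGATGNAA in 3.45% of promoters, and neither occurred in the 4 members.

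Of the 16017 cells, 12183 had at least 500 detected genes and at most 20% mitochondrial UMIs, with a median of 19348 UMIs (unique molecular identifiers, each standing for 1 captured transcript). Sftpc-high cells, with at least 500 Sftpc UMIs per 10000, numbered 8528 and had a median of 21376 UMIs. Keratin-high cells, with Krt8 and Krt18 together at 50 or more per 10000, numbered 1183 and had a median of 23490 UMIs. A set of 165 cells met both definitions, and 2637 met neither. The 11 ATII markers summed to 209398 CPM (UMIs of a gene scaled to a common total of the UMIs of the population) in Sftpc-high and 33278 CPM in keratin-high cells, and 8 markers of transitional epithelium to 2369 and 16671 CPM. These sums hold the genes of the definitions, Sftpc with 149472 and 19250 CPM of the ATII sums, and Krt8 and Krt18 with 4571 and 4658 CPM of the transitional sum in keratin-high cells. Markers of other cell types summed to 55.6 and 24.0 CPM for 7 immune, 15.8 and 6.91 CPM for 5 endothelial, 27.2 and 10.6 CPM for 6 fibroblast, 144 and 16.5 CPM for 4 club and 42.8 and 290 CPM for 4 ciliated cell genes, so ciliated markers were higher in keratin-high and club markers in Sftpc-high cells, and their part in the results was not tested. Leaving out cells with at least 20 immune, endothelial or fibroblast UMIs per 10000 changed no direction of the ratios given below between the populations.

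Cebpa was the leading member of Sftpc-high cells, at 359 CPM (356 to 361), followed by Cebpb at 265 CPM (262 to 267) and Cebpd at 251 CPM (249 to 253). Cebpg, the partner without an activation domain, was at 74.5 CPM (73.3 to 75.8), and Ddit3 at 32.3 CPM (31.5 to 33.1). The assay tags 1 end of each transcript, so these levels are not scaled to length, and neighboring members in this order did not overlap in their intervals. Cebpb and Cebpd nevertheless had no fixed order. In cells with a GFP UMI (from the trap allele) they were at 288 and 207 CPM, in cells with an Stk11 UMI at 248 and 280 CPM, and in cells with neither at 262 and 260 CPM.

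In keratin-high cells the order changed, with Cebpb first at 249 CPM (243 to 255), Cebpa at 152 CPM (148 to 156), Cebpd at 90.8 CPM (87.5 to 94.2), Cebpg at 83.9 CPM (80.7 to 87.2) and Ddit3 at 31.8 CPM (29.8 to 33.9). No intervals overlapped here either, although those of Cebpd and Cebpg nearly touched. Cebpd stood above Cebpg in cells with a GFP UMI, at 98.7 and 82.0 CPM, but below it in cells with an Stk11 UMI, at 87.5 and 95.9 CPM, and in cells with neither, at 66.4 and 81.7 CPM. Of the cells in neither population, those with Hopx (an alveolar type I gene) at 10 or more per 10000 had Cebpb at 401 CPM (389 to 413) and Cebpa at only 102 CPM (95.5 to 108). The remaining cells with less Hopx had 298 CPM of Cebpb and 219 CPM of Cebpa.

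**Figure D1:**
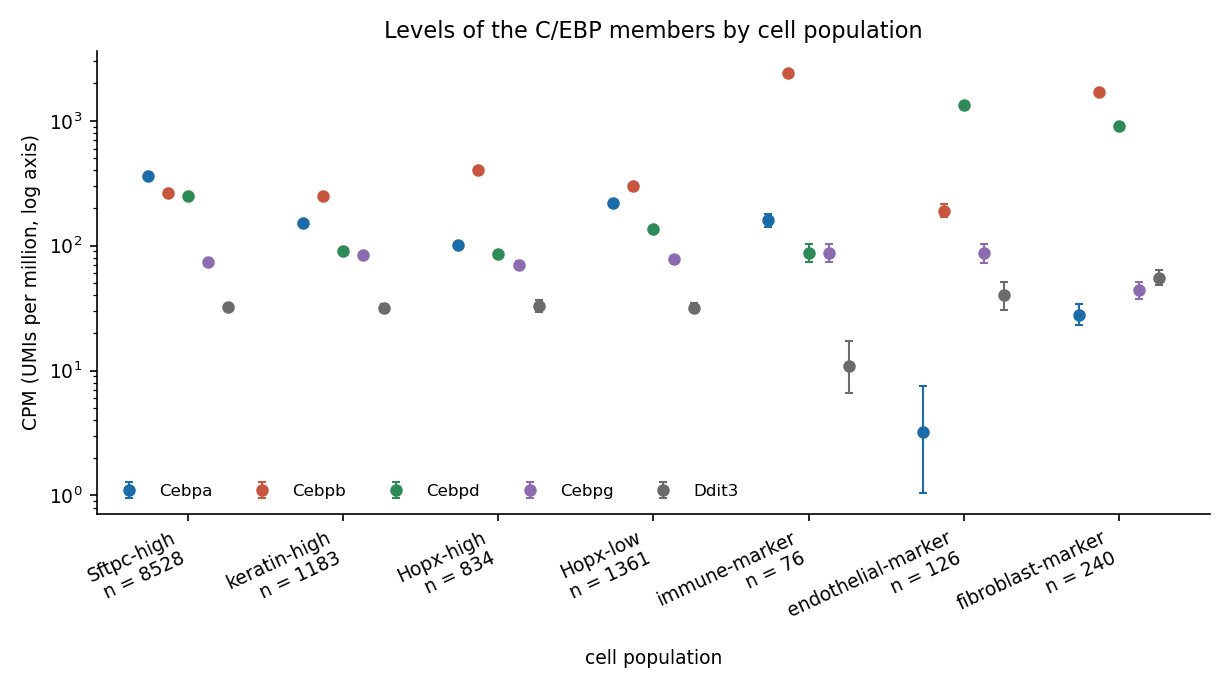
Levels of the 5 members in 7 cell populations, in CPM on a log axis, with exact Poisson 95% intervals as bars and the number of cells under each name. Cebpa leads in Sftpc-high cells at 359 CPM, Cebpb in keratin-high, Hopx-high, Hopx-low, immune-marker and fibroblast-marker cells, and Cebpd in endothelial-marker cells.

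The few cells with markers of other lineages had member profiles of their own. Cebpb, which myeloid cells use in their differentiation and activation, reached 2395 CPM in 76 immune-marker cells and 1710 CPM in 240 fibroblast-marker cells. Cebpd was highest in 126 endothelial-marker cells, at 1328 CPM, and reached 910 CPM in fibroblast-marker cells. Cebpa fell to 3.24 CPM (5 UMIs; 1.05 to 7.55) in endothelial-marker cells. Cebpe, the granulocyte member, had 1 UMI in the matrix after filtering, in an immune-marker cell, and 0 UMIs in Sftpc-high cells, for which a limit of 3 counts gives 0.0154 CPM and the exact interval an upper bound of 0.0189 CPM. Cebpz, which shares the name but is no leucine zipper factor, was at 28.2 CPM in Sftpc-high and 47.2 CPM in keratin-high cells.

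To compare cells of unequal depth, each cell was thinned to 5000 UMIs, which kept 8237 Sftpc-high and 1090 keratin-high cells and left out 291 and 93 shallower cells. A Cebpa UMI was then found in 77.2% of Sftpc-high cells (76.3 to 78.1) and 41.5% of keratin-high cells (38.5 to 44.5), against 94.98% and 75.1% before thinning. Endothelial-marker cells, with a median of 9437 UMIs, had a thinned Cebpa share of 2.60% (0.316 to 9.07), far under both. The shares of Cebpb were alike in the 2 populations, at 67.0% (66.0 to 68.0) and 65.1% (62.2 to 68.0). Cebpd was found in 53.3% (52.3 to 54.4) and 29.3% (26.6 to 32.1), Cebpg in 30.4% (29.4 to 31.4) and 36.5% (33.6 to 39.5), and Ddit3 in 13.2% (12.4 to 13.9) and 13.7% (11.7 to 15.9). No cell population here is known to lack Cebpb, Cebpd, Cebpg or Ddit3, so their shares have no background reference.

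Cebpd was the most unevenly spread member. Its variance over its mean (Fano factor, 1 for pure counting noise) was 2.91 in Sftpc-high and 2.57 in keratin-high cells, where the median gene had 1.04 and 1.06 and the 95th percentile of genes lay at 1.59 and 1.92. A Cebpd UMI was found in 53.3% of Sftpc-high cells although its mean alone would give 71.8%, and single cells reached 24 Cebpd UMIs of 5000. Cebpa and Cebpb had Fano factors of 1.47 and 1.45 in Sftpc-high and 1.85 and 1.51 in keratin-high cells. Cebpg was close to counting noise, at 1.08 and 1.11, and Ddit3 was at 1.32 and 1.18.

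Between the populations, with the 165 cells of both left out, Cebpa and Cebpd were lower in keratin-high cells. Cebpa had 132 CPM there and 361 CPM in Sftpc-high cells, 2.74-fold lower, with a keratin-high over Sftpc-high ratio of 0.365 (0.353 to 0.378). Cebpd had 88.3 and 254 CPM, 2.88-fold lower, with a ratio of 0.347 (0.333 to 0.362). Cebpb differed by a ratio of 0.920 (0.896 to 0.944), Cebpg by 1.13 (1.08 to 1.19) and Ddit3 by 1.02 (0.947 to 1.09). With populations called apart at a ratio of 0.8 or less, or of its inverse or more, 2 of the 5 members were apart, both lower, where 67.5% of 8304 tested genes were apart, 12.7% lower and 54.8% higher (genes with a UMI in at least 5% of thinned cells of either population).

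The scale matters for the smaller differences. The median tested gene was 0.38 higher in keratin-high cells on the log2 scale, while Sftpc alone took 150937 CPM in Sftpc-high cells and 7846 CPM in keratin-high cells, cells of both again left out. Relative to that median gene the log2 differences (keratin-high over Sftpc-high) were -1.84 for Cebpa, -1.91 for Cebpd, -0.50 for Cebpb, -0.20 for Cebpg and -0.36 for Ddit3, so Cebpg and Ddit3 changed direction and 4 of 5 members were apart, all lower, where 52.6% of tested genes were apart on this scale and 26.4% were lower. Nkx2-1, the lung lineage factor, had a ratio of 1.02 (0.997 to 1.04), and Lyz2 and Hc were 158-fold and 68.7-fold lower in keratin-high cells. Sftpc defined the populations, so its own difference is no finding.

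Members were mostly detected in the same cells as often as the product of their shares gives. In Sftpc-high cells 9 of the 10 pairs lay within 1.1 times the product, and 51.8% of cells (50.7 to 52.9) had both Cebpa and Cebpb against a product of 51.7%. Of cells with a Cebpa UMI, 67.1% (65.9 to 68.2) had a Cebpb UMI, and of cells without, 66.7% (64.5 to 68.9). Cebpa, Cebpb and Cebpd were found together in 28.6% of cells (27.6 to 29.6; product 27.6%), and none of them in 3.56% (3.17 to 3.98; product 3.51%).

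The exception in Sftpc-high cells was Cebpg with Ddit3, 2 members tied to the ATF4 stress response. They were found together in 4.83% of cells (4.38 to 5.32) against a product of 3.99%, a ratio of 1.21. Ddit3 was found in 15.9% of cells with Cebpg (14.5 to 17.4) and 12.0% of cells without (11.1 to 12.8). Over 10 further random thinnings this ratio had a mean of 1.13 and ran from 1.05 to 1.18, below the value given, and at 10000 UMIs per cell 0 pairs reached 1.1, with this pair at a log2 ratio of 0.07. Of 7437 other tested genes, 3.76% reached 1.1 times the product with Cebpg and 9.6% with Ddit3, against 0.82% with Cebpd, 0.215% with Cebpb and 0.0269% with Cebpa, the more widely detected members.

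In keratin-high cells 3 of the 10 pairs reached 1.1 times the product, namely Cebpb with Cebpd at 1.102, Cebpd with Ddit3 at 1.15 and Cebpg with Ddit3 at 1.14. Cebpd was found in 32.3% of cells with Cebpb (28.8 to 35.8) and in 23.7% of cells without (19.5 to 28.3). Over the 10 further thinnings the mean ratios were 1.05 for Cebpb with Cebpd (0.961 to 1.13), 1.18 for Cebpd with Ddit3 (1.08 to 1.38) and 1.22 for Cebpg with Ddit3 (1.06 to 1.32). Ratios of 1.1 were common here, in 13.5% of tested genes with Cebpa, 4.99% with Cebpb, 18.4% with Cebpd, 14.6% with Cebpg and 25.7% with Ddit3, and the ratios of Cebpd with Ddit3 and of Cebpg with Ddit3 each fell below 1 under 2 of the alternatives tried. Cebpa with Cebpb stood at 1.04, with Cebpb in 67.9% of cells with Cebpa (63.4 to 72.2) and in 63.2% without (59.3 to 66.9). Cebpa, Cebpb and Cebpd were found together in 9.63% of cells (7.95 to 11.5; product 7.91%) and none of them in 16.2% (14.1 to 18.6; product 14.4%).

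**Figure D2:**
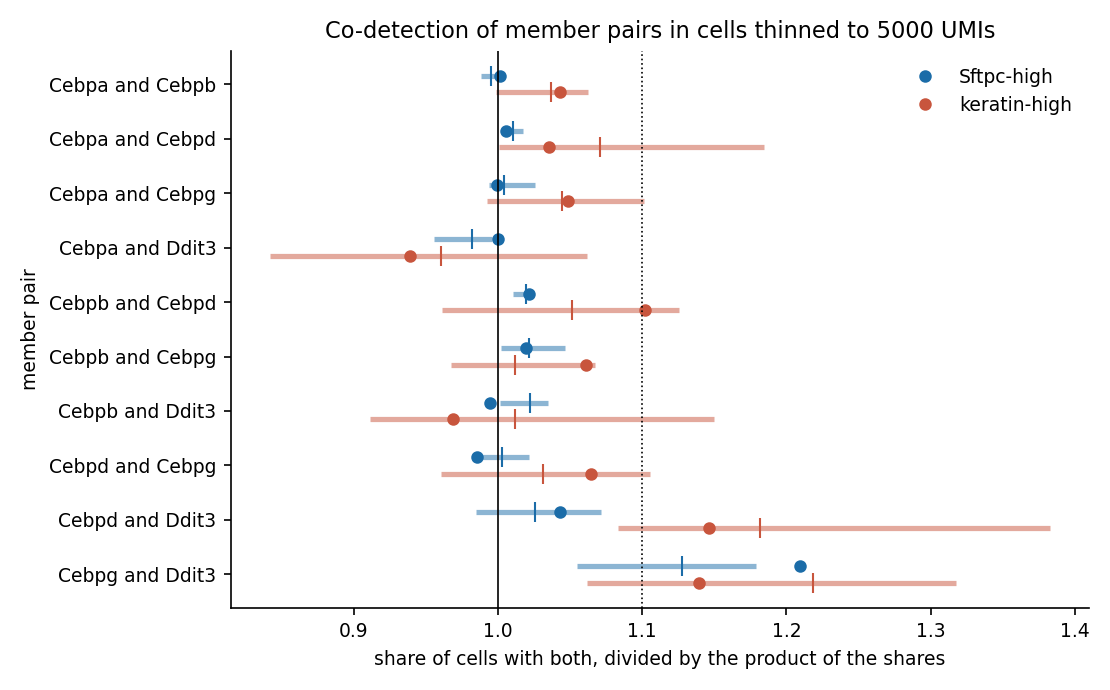
For each of the 10 member pairs, the share of cells with a UMI of both divided by the product of their shares, in Sftpc-high and keratin-high cells thinned to 5000 UMIs. Points are the reported thinning, and bands with a tick the range and mean of 10 further thinnings. Most pairs lie near 1, and Cebpg with Ddit3 lies to the right in both populations, with means of 1.13 and 1.22.

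Correlations across cells describe the cells of this pooled matrix, which share libraries, depth and, in unknown parts, mice. In Sftpc-high cells (n = 8237) only weak correlations were seen between the members and Sftpc, Lyz2 (lysozyme) or Hc (complement C5), and 5 of 15 reached a Spearman's rho of 0.1 in either direction. All 3 of Cebpd were positive, at 0.122 with Sftpc, 0.139 with Lyz2 and 0.122 with Hc, and over the 10 further thinnings they ran from 0.0988 to 0.126, 0.118 to 0.140 and 0.108 to 0.124. Cebpb was negative with Lyz2, at -0.122, and with Hc, at -0.104, and the further thinnings had means of -0.102 and -0.0899. Cebpa stayed near 0, at -0.011 with Sftpc, 0.032 with Lyz2 and -0.042 with Hc. Of 7437 tested genes, 11.3% passed 0.1 in either direction with Sftpc, 10.2% with Lyz2 and 7.66% with Hc. The count of 5 fell to 1 with Sftpc-high cells defined at 1000 per 10000 and to 2 with cells thinned to 2500 UMIs. The range of Sftpc was narrowed here by the definition of the population.

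The levels of Cebpd and Cebpb show the same. Over 5 equal bins of Sftpc-high cells ordered by Hc, Cebpd rose from 183 CPM (178 to 188) in the lowest to 309 CPM (303 to 315) in the highest bin, and Cebpb went the other way, from 318 to 227 CPM. The lowest and highest Hc bins had like median depths, of 16474 and 16942 UMIs. Over bins ordered by Lyz2 the lowest and highest had 177 and 281 CPM of Cebpd and 319 and 228 CPM of Cebpb. Cebpa had 365 CPM in the lowest Hc bin, 394.5 CPM in the next and 315 CPM in the highest, and 344 and 355 CPM in the lowest and highest Lyz2 bin. Its share of thinned cells was 73.0% (70.7 to 75.2) in the lowest and 76.4% (74.3 to 78.5) in the highest Hc bin. For Lyz2 these shares were 70.6% (68.4 to 72.8) and 81.0% (79.1 to 82.9), so the direction of Cebpa over Hc bins depended on the measure. Across the wider list of 15 ATII genes, 4 reached 0.1 with Cebpd (Lyz2, Hc, Sftpc and Cxcl15 at 0.115) and the median was 0.048, where 0.363% of all tested genes reached 0.1, while Sftpb (-0.082), Sftpd (-0.076), Cd36 (-0.040) and Napsa (-0.011) lay below 0. In Sftpc-high cells with GFP UMIs the rho of Cebpd with Sftpc, Lyz2 and Hc was 0.067, 0.143 and 0.068, and in cells with Stk11 UMIs 0.082, 0.093 and 0.068. That of Cebpa was 0.101, 0.065 and 0.041 in cells with GFP UMIs and 0.027, 0.096 and -6.8e-05 in cells with Stk11 UMIs, while its value with Sftpc over all cells had no steady sign, from -0.0135 to 0.00397 over the further thinnings.

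In keratin-high cells (n = 1090) Cebpa had the largest rho with Sftpc of the 5 members. It was 0.274 (0.232 to 0.288 over the further thinnings), and Cebpb followed at 0.157 (0.0991 to 0.162). These were 2 of 15 correlations past 0.1, where 8.67% of 7954 tested genes passed 0.1 with Sftpc, 2.02% with Lyz2 and 1.84% with Hc. Cebpa had 0.088 with Lyz2 and 0.083 with Hc, genes with a UMI in 760 and 165 of the 1183 cells before thinning, and these ran from -0.069 to 0.217 and from -0.020 to 0.190 over 20 alternatives. The count of 2 was 4 in each of 3 depth groups and without thinning, and 5 with a keratin limit of 25 per 10000. From the lowest to the highest of 5 equal bins by Sftpc, Cebpa was at 87.4 CPM (81.1 to 94.1), 105, 159, 185 and 244.5 CPM (232 to 257). In CPM every bin lay above the one before it, and the intervals of neighboring bins did not overlap. Their median depths had no such order, at 30695, 21927, 17335.5, 23635 and 23334 UMIs. The share of thinned cells with a Cebpa UMI did not rise at every step, at 29.4%, 28.1%, 45.4%, 46.0% and 60.5%. Cebpb was at 206 CPM in the lowest and 286 CPM in the highest bin, and Ddit3 at 42.8 and 26.6 CPM. Median Sftpc was only 4.37 per 10000 in the lowest bin and 10.7 in the next. The 11 ATII markers together summed to 1754 CPM in endothelial-marker and 2178 CPM in fibroblast-marker cells. How far stray Sftpc UMIs ordered the low bins was not tested. Within keratin-high cells with GFP UMIs (n = 634) the rho of Cebpa with Sftpc was 0.311 and of Cebpb 0.124, and in the 163 with Stk11 UMIs 0.086 and 0.272. Cebpd with Sftpc had 0.037 in the former and 0.273 in the latter, so Cebpd and Cebpb lay above Cebpa in the cells with Stk11 UMIs. The highest bin of 236 cells held all 165 cells that were also Sftpc-high, in which Cebpa was at 271 CPM, and without these cells the rho with Sftpc was 0.198. In the 165 keratin-high cells with an Hc UMI, Cebpa was at 209 CPM (197 to 221). In the 1018 cells without, it was at 140 CPM (135 to 145), and the median depths were 29696 and 22350 UMIs. The cells with an Hc UMI overlapped the cells of both populations but were not the same set. Of them, 64 were also Sftpc-high, a larger share than among the cells without an Hc UMI. The part of this overlap in the Cebpa difference was not tested.

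**Figure D3:**
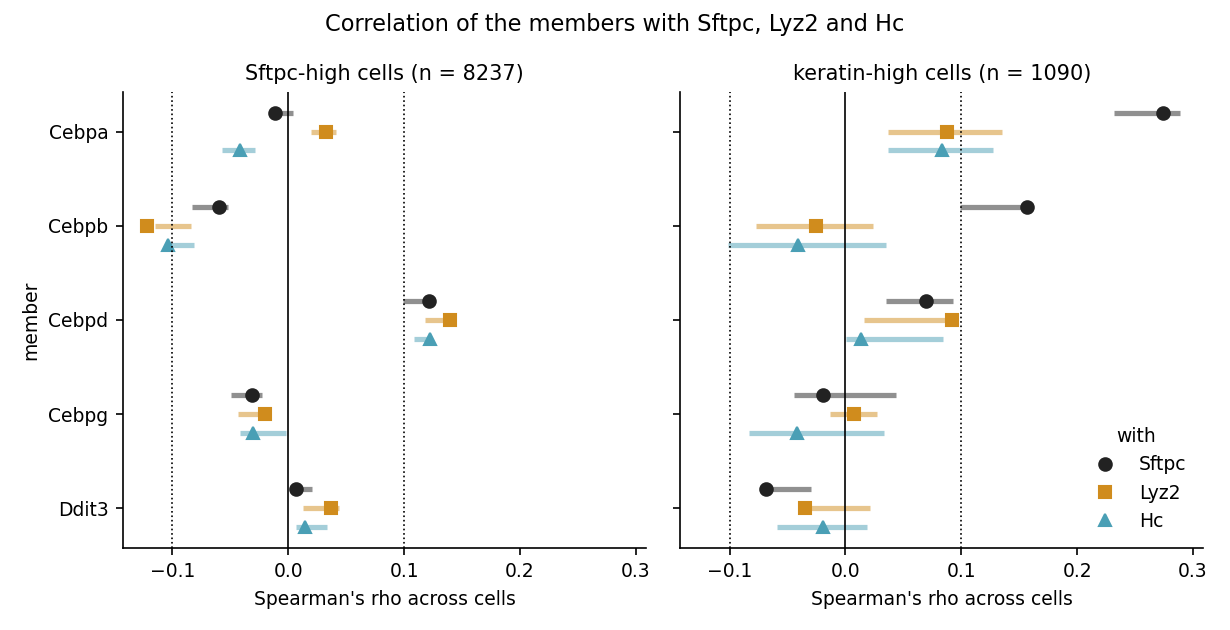
Spearman's rho of each member with Sftpc, Lyz2 and Hc across thinned Sftpc-high (left) and keratin-high cells (right). Points are the reported thinning, bands the range over 10 further thinnings, and dotted lines mark 0.1 in either direction. Cebpd lies to the right of 0.1 for all 3 genes on the left, and Cebpa with Sftpc stands apart on the right at 0.274.

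**Figure D4:**
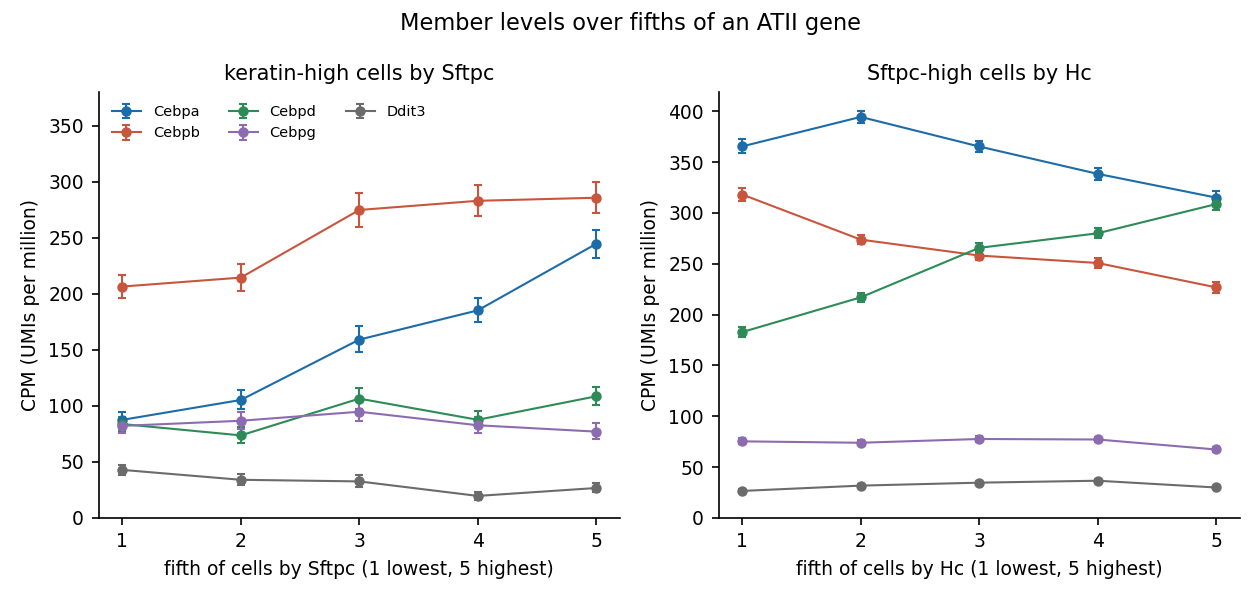
Level of each member (CPM with exact Poisson 95% intervals) over 5 equal bins of cells, keratin-high cells ordered by Sftpc on the left and Sftpc-high cells ordered by Hc on the right. On the left Cebpa rises from 87.4 to 244.5 CPM, and on the right Cebpd rises from 183 to 309 CPM while Cebpb falls from 318 to 227 CPM.

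Cebpa followed the wider ATII list in keratin-high cells. Of 15 ATII genes, 12 reached a rho of 0.1 with Cebpa and 0 reached -0.1, with a median of 0.214, where 2.15% of all tested genes reached 0.1. Sftpb (surfactant protein B, needed to form the surfactant film) had the largest rho of all tested genes, at 0.383, followed by Sftpa1 at 0.312 and by Npc2, which is not in the list, at 0.292. Sftpd (0.291), the aspartic protease Napsa (0.283) and the phosphate transporter Slc34a2 (0.275) were close behind, and Hc, Etv5 and Lyz2 lay between 0.083 and 0.088. These genes share a program, so they are not independent observations.

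In the same cells, many genes of other identities had negative values with Cebpa. Of 9 tested alveolar type I (ATI) genes 6 reached -0.1, the farthest being Akap5 at -0.220 and Clic5 at -0.157, while Aqp5 (0.071) and Vegfa (0.046) lay above 0. Of 12 transitional genes 8 reached -0.1, with the integrin Itgb6 at -0.186 and Krt18 at -0.164, and Areg lay at 0.037, although Krt8 and Krt18 were narrowed by the definition of the population. Over all tested genes 2.24% reached -0.1. The lowest were S100a11 at -0.305, Lmo7 at -0.261 and Msn at -0.245. Within keratin-high cells with GFP UMIs (n = 634), with Stk11 UMIs (n = 163) and with neither (n = 290), 13, 10 and 12 of the 15 ATII genes reached 0.1 with Cebpa, and all 15 were above 0 in each. Of all tested genes 2.78%, 10.8% and 7.12% reached 0.1 in these cells. In Sftpc-high cells 2 of the 15 reached 0.1, Slc34a2 at 0.133 and Sftpb at 0.101, where 0.148% of tested genes did (0.121% reached -0.1, among them 3 of 7 tested ATI genes), and this number ran from 0 to 7 over 20 alternatives. It was 7 in cells with GFP UMIs, 0 in cells with Stk11 UMIs and 2 in cells with neither, where 0.578%, 0.0134% and 0.134% of tested genes reached 0.1. Whether Cebpa correlations differ between the 2 populations was not tested.

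**Figure D5:**
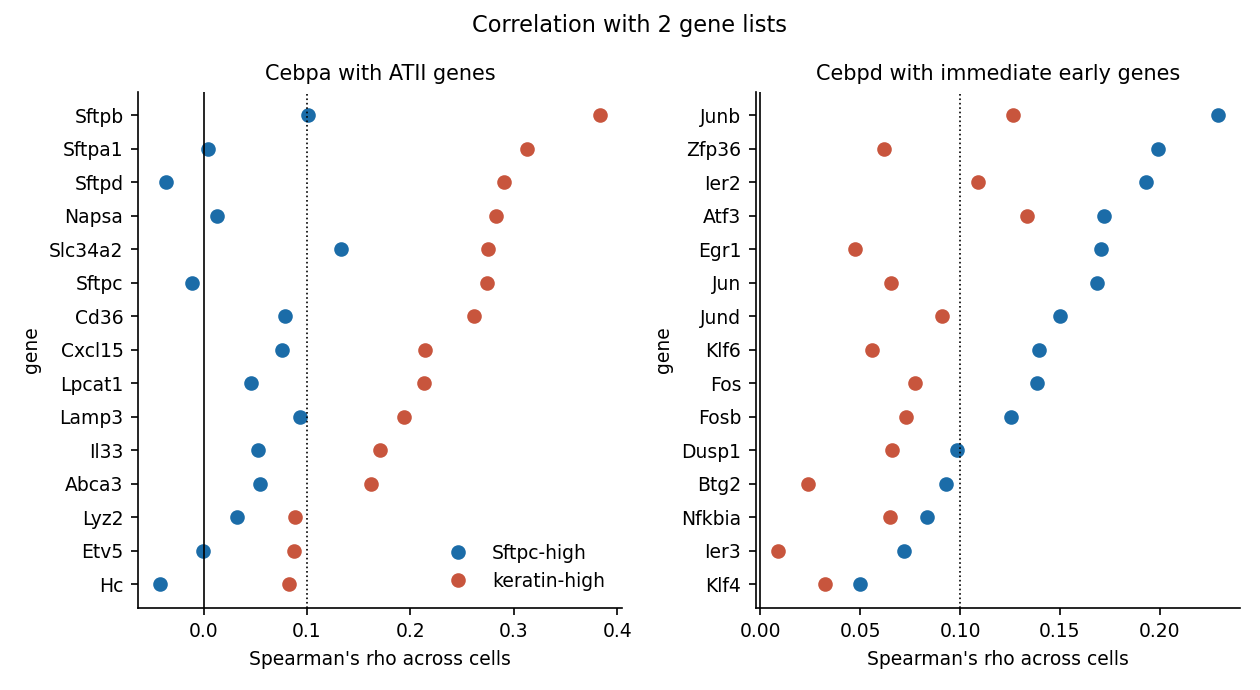
Spearman's rho across thinned cells of Cebpa with 15 ATII genes (left) and of Cebpd with 15 immediate early genes (right), with a point for each population and a dotted line at 0.1. On the left 12 genes pass 0.1 in keratin-high and 2 in Sftpc-high cells, and on the right 10 pass it in Sftpc-high and 3 in keratin-high cells.

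Cebpd moved with immediate early genes, which are transcribed within minutes of a stimulus. In Sftpc-high cells 10 of 15 such genes reached a rho of 0.1 with Cebpd, with a median of 0.139, where 0.363% of tested genes did. Junb (0.229) and Zfp36 (0.199) were among the 3 genes most like Cebpd, with Socs3, the feedback inhibitor of STAT3 signaling, at 0.212. Atf3, a leucine zipper factor of the stress response, was at 0.172, and Klf4 was lowest at 0.050. The number was 13, 8 and 12 in cells with GFP, with Stk11 and with neither UMI, where 0.632%, 0.175% and 0.538% of tested genes reached 0.1. Of 8 tested genes induced by glucocorticoids 0 reached 0.1 with Cebpd, and Klf9 came nearest at 0.092. S100a6 (-0.190) and Krt7 (-0.146) were the lowest of all tested genes, of which 0.309% reached -0.1. In keratin-high cells 3 of the 15 immediate early genes reached 0.1, Atf3 at 0.133, Junb at 0.127 and Ier2 at 0.109, where 0.39% of all tested genes did and 0.0629% reached -0.1.

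Cebpb leaned toward ATI genes in Sftpc-high cells. Hopx (0.123), Ager (0.116) and Aqp5 (0.112) were the 3 genes most like it and the 3 of 7 tested ATI genes past 0.1, where 0.121% of all tested genes were. Of the 15 ATII genes 5 reached -0.1, Lamp3 at -0.123, Lyz2 at -0.122, Sftpb at -0.120, Cxcl15 at -0.111 and Hc at -0.104, against 0.215% of all tested genes. The lowest of all tested genes were the mitochondrial mt-Co1 (-0.136) and mt-Co3 (-0.131), beside the rho of -0.130 with the mitochondrial share (-0.188 in the shallowest of 3 depth groups), whose part in these values was not tested. In keratin-high cells Cebpb was closest to Cd74 (0.163), Fth1 (0.159) and Dhrs3 (0.157), and lowest with Tpm1 (-0.174), where 0.641% of tested genes reached 0.1 and 0.603% reached -0.1. Of the 15 ATII genes, 2 reached 0.1 with Cebpb there (Sftpc at 0.157 and Napsa at 0.105) and 0 reached -0.1, and of 9 tested ATI genes 2 reached 0.1 (Ager at 0.128 and Aqp5 at 0.123).

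Cebpg and Ddit3 shared 2 of their 3 nearest genes in Sftpc-high cells, all at low values. Cebpg was nearest to Mthfd2 (0.106), Atf5 (0.105) and Eif4ebp1 (0.095), and Ddit3 to Nupr1 (0.138), Mthfd2 (0.124) and Atf5 (0.117). These genes are known targets or members of the ATF4 response. Of 14 tested genes of the integrated and endoplasmic reticulum stress responses, 4 reached 0.1 with Ddit3 (Atf5, Trib3 at 0.110, Asns at 0.104 and Herpud1 at 0.101) and 1 with Cebpg (Atf5), where 0.108% and 0.0269% of all tested genes did. Hspa5, the main chaperone of the endoplasmic reticulum, had 0.028 with Ddit3 and 0.047 with Cebpg. In keratin-high cells 0 of 13 tested stress genes reached 0.1 with Ddit3 or with Cebpg, whose nearest genes were Fam173b (0.141) and Git1 (0.113). Of all tested genes 0.176% reached 0.1 and 0.0754% reached -0.1 with Ddit3, and 0.113% and 0.101% with Cebpg.

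A GFP UMI marks a transcript of the trapped allele and an Stk11 UMI a transcript that the trap did not truncate. A missing UMI of either does not show the form of the allele. Both transcripts correlated weakly with the members. In Sftpc-high cells all 10 values of rho lay between -0.058 (Cebpd with GFP) and 0.046 (Cebpb with GFP), where 0.847% of tested genes passed 0.1 in either direction with GFP and 0.242% with Stk11. In keratin-high cells Cebpd with GFP reached 0.124 and the other 9 lay between -0.077 and 0.081, where 0.39% of tested genes passed 0.1 with GFP and 1.03% with Stk11. Both transcripts are rare, and 3482 of 8528 Sftpc-high and 373 of 1183 keratin-high cells had neither.

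Levels were also set side by side in Sftpc-high cells with GFP and no Stk11 UMI (n = 2216, median 25360.5 UMIs) and with Stk11 and no GFP UMI (n = 2811, median 24623 UMIs). These are cells by transcript, not the labelled mice, and cell class and mouse cannot be told apart. Cebpd, with 207 CPM in GFP and 280 CPM in Stk11 cells, had a GFP over Stk11 ratio of 0.738 (0.722 to 0.755), and Ddit3, with 26.1 and 37.4 CPM, had 0.699 (0.656 to 0.744). The median tested gene stood 0.18 higher in GFP cells on the log2 scale. Relative to it the log2 differences were 0.07 for Cebpa, 0.03 for Cebpb, -0.62 for Cebpd, -0.24 for Cebpg and -0.70 for Ddit3. Cebpa stood 1.20 times as high in GFP cells (395 against 330 CPM; 1.18 to 1.22) and Cebpb 1.16 times (288 against 248 CPM; 1.13 to 1.18), and Cebpg had a ratio of 0.965 (0.928 to 1.00). So 2 of 5 members were apart by the limit used above, both lower in GFP cells, where 28.2% of 7438 tested genes were apart, 4.07% lower and 24.1% higher. In 3 groups of cells by UMI total, from shallow to deep, the log2 ratio of Cebpd was -0.27, -0.70 and -0.34 and that of Ddit3 -0.15, -0.29 and -0.67, so Cebpd and Ddit3 were both apart in the deepest group alone. The same cells differed in ATII genes, with ratios of 0.775 for Sftpc, 0.535 for Lyz2 and 0.377 for Hc, and in keratins, with 2.13 for Krt8, and the part of these differences in those of the members was not tested.

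Within keratin-high cells, 642 with GFP and 165 with Stk11 UMIs, Cebpa had 164 and 96.9 CPM and so stood 1.69 times as high in GFP cells (1.53 to 1.87), and Cebpb, with 265 and 178 CPM, 1.49 times (1.38 to 1.60). Cebpd had a ratio of 1.13 (1.01 to 1.26), Cebpg of 0.856 (0.770 to 0.952) and Ddit3 of 0.829 (0.696 to 0.992). Thus 2 of 5 members were apart, both higher in GFP cells, where 26.2% of 7955 tested genes were apart, 15% higher and 11.2% lower. Without the cells that were also Sftpc-high the count was 4, with Cebpd at a log2 ratio of 0.47 and Ddit3 at -0.34. The log2 ratio of Cebpa was 0.77, 0.72 and 0.78 in the 3 depth groups and that of Cebpb 0.46, 0.38 and 0.74, while Cebpd changed direction among them, at -0.11, -0.62 and 1.16, as did Ddit3, at 0.78, -0.02 and -0.55. Sftpc was also higher in the GFP cells, with a ratio of 1.36, and Nkx2-1 had 1.34. Hc had 1.54 (1.14 to 2.12), while Lyz2 went the other way, at 0.924 (0.883 to 0.966).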

How the data were processed

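Single-cell RNA was measured with the 10x Chromium 3′ v3 assay. Per the labels, Cell Ranger and the mm10 build were used, and the authors deposited whole UMI counts per gene and cell, not normalized, with all libraries in 1 matrix. Whether libraries were brought to equal depth is not given in the sources used here.

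Cells with at least 500 genes and at most 20% mitochondrial UMIs were kept. CPM are UMIs of a gene scaled to a common total after summing over cells, so deep cells weigh more. Co-detection and Spearman correlations used cells thinned at random to 5000 UMIs (seed 42). Doublets were kept, since Scrublet (scanpy 1.11.5) called 0 of 13936 cells at its automatic threshold, and 712 cells with the highest scores were left out as an alternative. Genes with a UMI in at least 5% of thinned cells were tested as background. Named genes are the members, Sftpc, Lyz2, Hc, GFP, Stk11, the 3 genes of largest rho with each member and the extremes of lists fixed with the design. The other genes printed, among them those of lowest rho, were named after their values were seen. Members and lists were chosen with earlier results of these data known. The lists of glycolysis, proliferation, acute phase and STAT3 genes and of C/EBP relatives are given under the other observations. The ratio, thinning and correlation steps were tested on simulated data with 200 changed genes. Alternatives changed filters, populations, doublets, scaling, thinning and depth groups, and the mean over 10 further thinnings and the list counts under each alternative were chosen after seeing the data. Python 3.11.15, numpy 2.4.6, scipy 1.17.1 and pandas 2.3.3 were used. A further allele that all mice shared is not reported here.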

Additional observations from a re-analysis of the deposited data

How the results depend on the processing

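Of 185 values of the 10 counts of members, pairs or list genes under alternatives, 153 stayed within 1.5 times the reported count, and of 310 values of the 17 single values past their limit, 4 reversed. For none of the exceptions was the cause tested. Members apart between keratin-high and Sftpc-high cells numbered 4 relative to the median gene (2 as reported). Between GFP and Stk11 cells they numbered 0 and 1 in the shallowest and middle depth group of Sftpc-high cells (2 as reported), and 4 in keratin-high cells both without cells of both populations and in the deepest group (2 as reported). Pairs at 1.1 times the product numbered 0 in Sftpc-high cells thinned to 10000 UMIs (1 as reported). In keratin-high cells they numbered 1 with a limit of 25 keratin UMIs per 10000, 1 with surfactant, Lyz2 and mitochondrial genes left out of the total, 0 in the middle depth group, 0 when thinned to 10000 UMIs and 5 without thinning (3 as reported). Correlations past 0.1 with Sftpc, Lyz2 and Hc numbered 1 in Sftpc-high cells defined at 1000 per 10000, 3 in the deepest group and 2 when thinned to 2500 UMIs (5 as reported). In keratin-high cells they numbered 5 with the limit of 25, and 4 in each depth group and without thinning (2 as reported). In keratin-high cells 2 pairs changed direction on the log2 scale of observed over product, Cebpd with Ddit3 to -0.13 with those genes left out of the total and to -0.014 when thinned to 10000 UMIs (0.20 as reported), and Cebpg with Ddit3 to -0.23 with a limit of 100 keratin UMIs and to -0.21 when thinned to 2500 UMIs (0.19 as reported). The counts of list genes under 20 alternatives ran from 11 to 15 for ATII genes with Cebpa in keratin-high cells and from 7 to 15 for immediate early genes with Cebpd. The least steady count was that of ATII genes with Cebpa in Sftpc-high cells (2 as reported), which moved under 13 of 20. It was 0 with the limit of 1000 and in the deepest group, 1 without cells of other types, without cells of both populations, in the middle depth group, when thinned to 2500 UMIs and with another seed, 4 with a limit of 250 and with Pearson correlations, 5 when thinned to 10000 UMIs, 6 in the shallowest group and with those genes left out of the total, and 7 without thinning. No paired analysis was possible because the cells carry no sample or replicate number. At 5000 UMIs a gene such as Ddit3 is missed in most cells, which limits what its correlations can show.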

Other observations

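Other lists moved little with the members. Of the glycolysis genes, Ldha (lactate dehydrogenase A) was the only member of 13 tested in Sftpc-high and of 14 tested in keratin-high cells to reach a rho of 0.1 with Cebpa, at 0.1003 and 0.178, and 0 reached 0.1 in either direction with the other members. Over all tested genes 0.148% reached 0.1 with Cebpa in Sftpc-high and 2.15% in keratin-high cells. Of 8 tested acute phase and STAT3 genes in keratin-high cells, Lcn2 (0.160) and Lrg1 (0.136) reached 0.1 with Cebpa and Socs3 (0.111) with Cebpd, where 0.39% of all tested genes reached it with Cebpd. In Sftpc-high cells, with 7 tested, Socs3 reached it with Cebpd, at 0.212, where 0.363% of all tested genes did, and Lcn2 had -0.110 with Cebpb, where 0.215% reached -0.1. Of 14 tested C/EBP relatives and partners in Sftpc-high cells, Atf3 reached 0.1 with Cebpd (0.172), Atf5 with Cebpg (0.105) and Ddit3 (0.117), and Trib3 with Ddit3 (0.110), against 0.0269% of all tested genes with Cebpg and 0.108% with Ddit3. In keratin-high cells, with 13 tested, Atf3 (0.133) and Trib1 (0.110) reached it with Cebpd. The list of proliferation genes had 1 tested gene in each population, and its rho lay under 0.1 with every member. These are descriptions over cells of the pooled matrix, and the members they share with other lists are not further observations.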
